A study of Mus musculus with 19 samples.

Results

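The 10 genes described here carry the symbols Selenow, Selenom, Selenof, Selenot, Selenoh, Selenok, Selenos, Selenoi, Selenop and Selenoo. They were chosen by name as genes whose mRNA recodes a stop codon, older symbols such as Sepw1 and Sep15 included, and all 10 were found among the 39017 genes in the tables. All 10 passed the filter on low counts, which kept 13926 genes. The 14 other known mouse selenoprotein genes on the lists used here (glutathione peroxidases, thioredoxin reductases, deiodinases and others) serve for comparison.

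The libraries come from translating ribosome affinity purification (TRAP), in which ribosomes carrying a green fluorescent L10a protein are pulled out of tissue with the mRNA they hold. In striatum of female mice on a C56BL/6J background, the tag was made in D1 spiny projection neurons of the strain Drd1::EGFP-L10a or in D2 spiny projection neurons of Drd2::EGFP-L10a. The groups are old D1 (2 years), young D1 (42 days), old D2 (2 years) and young D2 (42 days), with 4 libraries each. All groups carry the tagged ribosome, so none is a mouse without it, and the measure is ribosome-bound mRNA and not total mRNA or protein.

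Selenoproteins hold selenocysteine, an amino acid that replaces the sulphur of cysteine by selenium and gives many of these enzymes their redox activity. Its codon is UGA, elsewhere a stop, and ribosomes read it as selenocysteine when a hairpin in the 3′ untranslated region (the SECIS element) recruits a binding protein and a dedicated elongation factor. A UGA that is not recoded can be treated as a premature stop, and brain keeps its selenium and selenoproteins when other organs run short of selenium.

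The codon that defines the family is shown first, because it is the feature that all 10 mRNAs share. Each line gives the coding-strand DNA around the first selenocysteine codon of the main isoform, from the RefSeq genome sequence of GRCm38, with 12 bases on either side and the TGA in capitals. In Selenok, Selenos and Selenoo the closing stop codon, taa, lies within the window, and the bases after it are untranslated.
Selenow: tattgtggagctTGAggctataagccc
Selenom: acctgtggaggaTGAcagttgaatcgc
Selenof: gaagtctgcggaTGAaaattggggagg
Selenot: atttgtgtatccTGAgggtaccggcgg
Selenoh: cattgtacgagcTGAcgcgtgtacggc
Selenok: atggctggtggaTGAggaaggtaaatg
Selenos: tcatctggcggcTGAaactaagactct
Selenoi: ccaaactcagatTGActaggaatggaa
Selenop: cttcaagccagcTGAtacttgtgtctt
Selenoo: ctctgtgtaacaTGAtcctcataaagg
In 5 of these windows (Selenow, Selenom, Selenot, Selenoh and Selenoo) a cysteine codon, tgt, stands 3 codons before the TGA, the spacing of the redox motif known from thioredoxin-like selenoproteins. In Selenof the cysteine codon tgc stands 2 codons before it. The windows of Selenok, Selenos and Selenoi hold no cysteine codon, and that of Selenop has one only after the TGA.

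The place of the codon in the mRNA separated the genes further. It lay early in Selenow (residue 13 of 88), Selenom (48 of 145), Selenot (49 of 195), Selenoh (38 of 116) and Selenop (59 of 380, the first of 10 such codons). In these 5 genes it was more than 50 bases upstream of the last exon junction, by 243 bases in Selenow, 135 in Selenom, 470 in Selenot, 266 in Selenoh and 357 in Selenop. In Selenof (residue 93 of 121 in the main isoform) the distance was 28 bases, and 78 bases in its longer coding isoform, which was the more abundant one in young D1 neurons. In Selenok (92 of 94) it was 5 bases. Selenos (189 of 190), Selenoi (388 of 398) and Selenoo (665 of 667) carry the codon in the last exon, a few residues from the end.

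**Figure D1:**
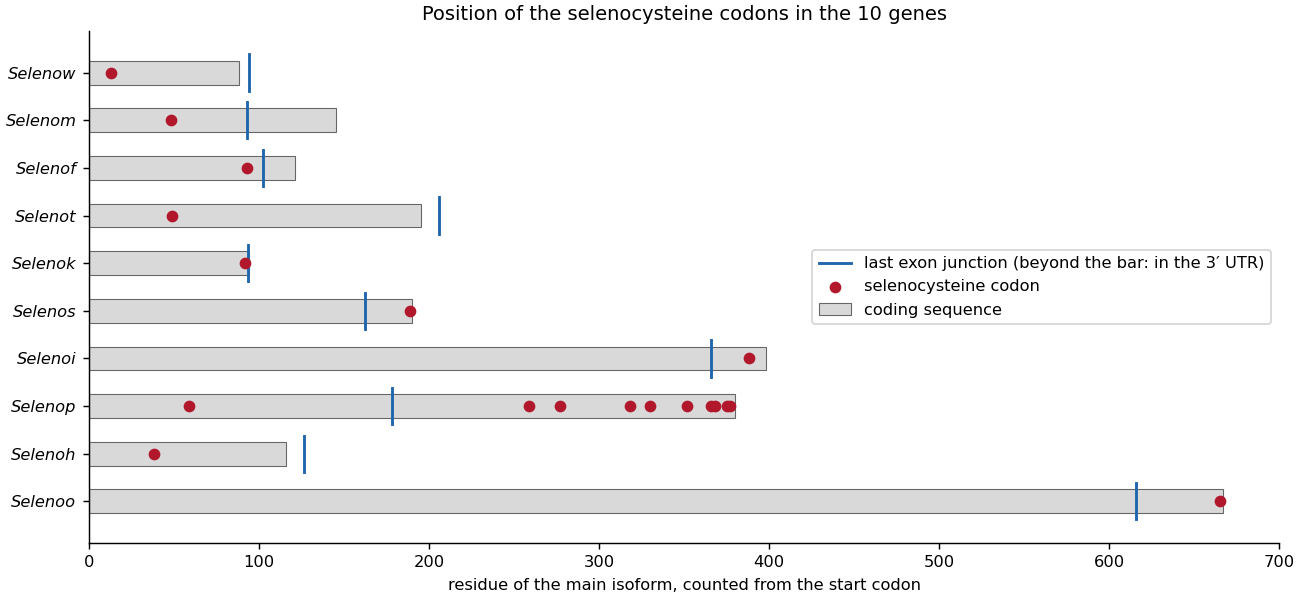
Coding sequence of the main isoform of each gene (grey bar, in residues), with its selenocysteine codons (red) and the last exon junction (blue line, drawn past the bar where it lies in the 3′ untranslated region). The 7 genes with the first red point left of the blue line are Selenow, Selenom, Selenof, Selenot, Selenok, Selenop and Selenoh; Selenop alone has 10 codons.

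The 4 libraries of old D1 neurons differ from the remaining 12 in fragment length and in the share of counts taken by 1 gene, and most of them in genes detected, and these differences enter every comparison that uses them. They hold a count for 10369 to 13705 genes, against 12783 to 15000 elsewhere, with an overlap, and their mean fragment length is 151 to 164 bases, against 170 to 195 bases elsewhere. The gene with the most counts in every library, Gm42418, takes 4.45 to 5.41% of counts in old D1 libraries, against 9.76 to 18.2% elsewhere. In the age comparison of D1 neurons, the log2 fold change of a gene correlated with its GC content with a Spearman rho of -0.34 across 13548 genes (-0.0049 in D2 neurons), and 0.024 after the trend was removed. Values with the GC and length trend removed are given beside the calls for members and most other calls; that step moved the median log2 fold change of all tested genes in D1 to -0.18, against -0.06 before. The closing bases of the index sequence in the labels are common to the 4 old D1 libraries and occur in no other group, so index and group cannot be told apart. The purified cell types matched their labels: the summed level of 6 D1 neuron markers was 3871 to 6934 TPM in old D1 and 2030 to 2774 TPM in young D1 libraries, against 431 to 679.5 TPM in old D2 and 143 to 165 TPM in young D2 libraries. Levels are given in TPM, a transcript level divided by length and by library size, which can be compared between genes.

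Selenow was the third most abundant of the 10 mRNAs by mean TPM in old D1 neurons, and the most abundant in each of the other groups. It was the highest of the 10 in 1 of 4 old D1 libraries, where Selenof led the other 3, and in 12 of 12 libraries of the other groups. These are gene totals. In old D1 library 1 most of the Selenof level was in an isoform that does not code for protein (75.53 of 138.8 TPM). Selenow made up 5.52 to 32.7% of the summed level of the 10 genes in old D1 libraries, against 61.7 to 77.1% in the libraries of the other groups. By mean TPM over all 16 libraries it ranked 74 among the 13926 tested genes, and its neighbours in the order, Selenom (rank 900), Selenof (1250), Selenot (1435) and Selenok (2077), were several-fold lower. Selenos, Selenoi, Selenop, Selenoh and Selenoo followed, at ranks 4245 to 10312. In young D1 neurons the values of Selenow and Selenom, of Selenom and Selenof, and of Selenot and Selenok did not overlap, while 6 of the 9 neighbouring pairs in that order did; in old D1 neurons 9 of 9 pairs overlapped.

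**Figure D2:**
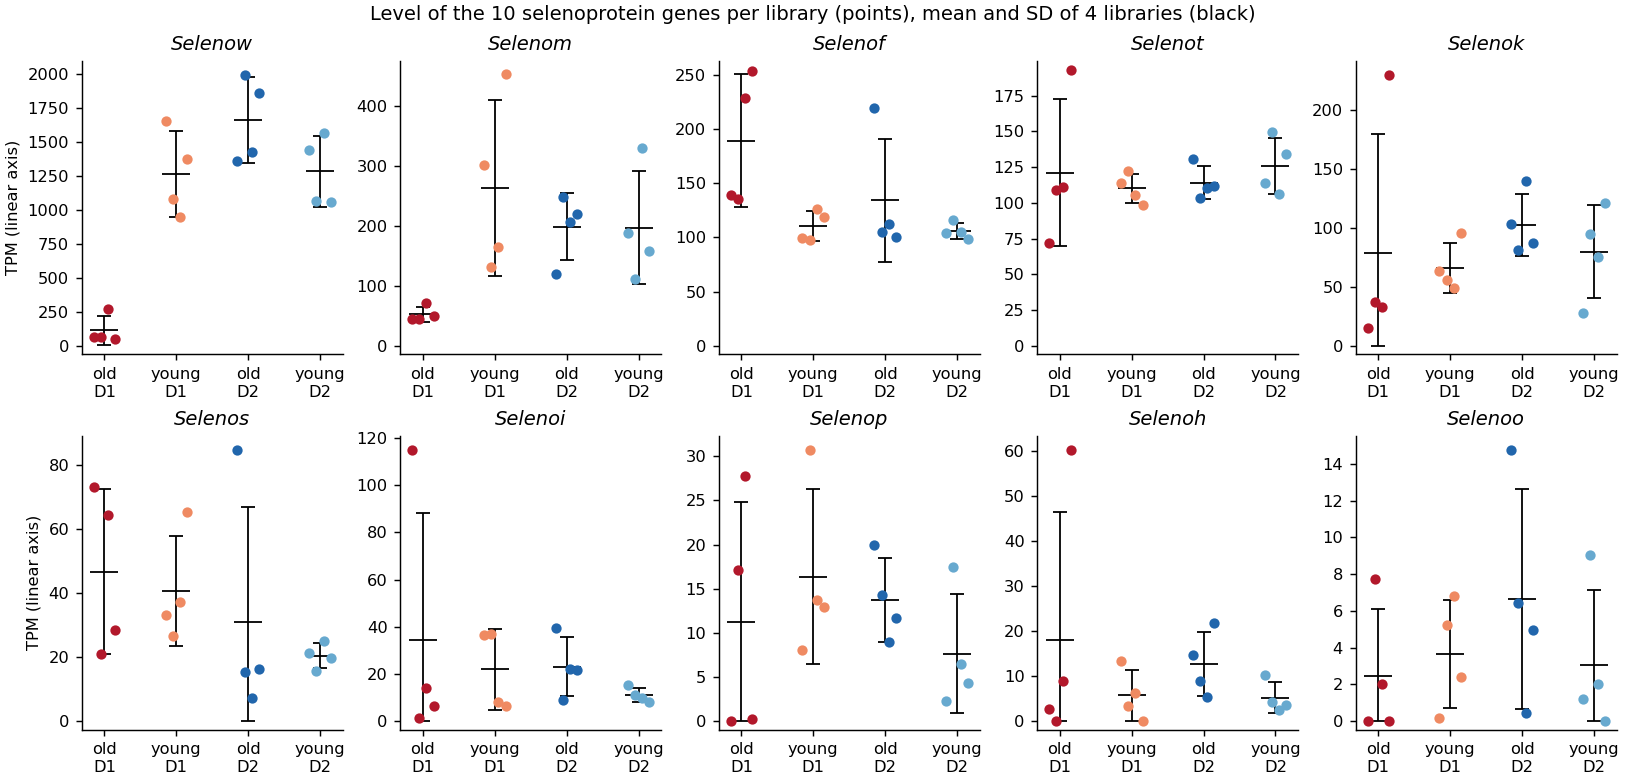
TPM of the 10 genes in each library (points) for old D1, young D1, old D2 and young D2 neurons, with mean and SD of 4 libraries in black; lower SD bars end at 0 and each panel has its own linear axis. The 4 old D1 points of Selenow (47.96 to 272.6 TPM) and of Selenom (44.71 to 70.73 TPM) lie below every point of the other groups.

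Of the redox selenoproteins with a thioredoxin-like fold, Selenow and Selenom were lower in old than in young D1 neurons. Selenow (chr7:15917208-15922402, minus strand, GRCm38) encodes a small cytosolic redox protein that is abundant in muscle and brain. It had 67.2, 69.0, 272.6 and 48.0 TPM in old D1 libraries, against 1654, 1080, 952 and 1375 TPM in young D1 libraries. The highest old D1 library was the third, and no old value reached a young one. The fitted change was -3.57 ± 0.41 on the log2 scale (SE), 11.9-fold lower in old D1 neurons (edgeR adjusted p = 8.84e-05). With the GC and length trend removed it was -2.77 ± 0.34 (adjusted p = 0.000225), and without old D1 replicate 3 it was -4.42. It was called in 16 of 16 alternatives, in which the adjusted p did not exceed 0.00913.

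Selenom (chr11:3514684-3517351, plus strand) encodes a protein of the endoplasmic reticulum (ER) lumen with a redox motif. It had 45.0, 44.7, 70.7 and 49.4 TPM in old D1 libraries, against 301.6, 132, 165 and 454 TPM in young D1 libraries. The groups did not overlap, as was the case with lower old values for 7.60% of tested genes, and the 4 young libraries differed more among themselves than the old ones did. The log2 fold change was -2.44 ± 0.45 (edgeR adjusted p = 0.00209), 5.44-fold lower in old D1 neurons. This call was lost in other fits: with the GC and length trend removed the change was -1.08 ± 0.36 (adjusted p = 0.0809), and with voom library weights the adjusted p was 0.142. At 61.7% GC, Selenom has the most GC-rich main isoform of the 10, against a median of 49.9% over tested genes, and at 707 bases it is short, against a median of 2473. Selenow has 57.2% GC and 736 bases.

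Together, 2 of 10 members were called lower and 0 higher in old D1 neurons, where 5.44% of all tested genes were called lower and 10.8% either way. With the trend removed 1 of 10 was lower, against 3.58% of tested genes. The median log2 fold change of the 10 was -0.28, beside -0.06 over all tested genes. Among all tested genes, 1020 had a more negative age change in D1 neurons than Selenow.

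Markers of other cells differed between the same libraries, but not all in one direction. Of 10 astrocyte markers tested, 6 had a positive and 4 a negative log2 fold change, and 1, Aldoc, was called higher in old D1 neurons. Of 8 microglia markers tested, 4 were positive and 4 negative, and 0 were called. Of 10 oligodendrocyte markers tested, 3 were positive and 7 negative, and 0 were called. The summed level of 10 astrocyte markers was 244 to 406 TPM in old D1 libraries, against 60.8 to 137 TPM in young D1 libraries. That of 10 microglia markers was 15.9 to 35.6 TPM, against 1.19 to 22.6 TPM. C1qa was listed at 0 in all libraries of every group, and Tmem119 in all old D1 and all young D2 libraries. The summed level of 10 oligodendrocyte markers was 93.6 to 484 TPM in old D1, against 140 to 321 TPM in young D1 libraries. The summed level of 10 markers shared by all spiny projection neurons was 9948 to 10926 TPM in old D1, against 9437 to 11105 TPM in young D1 libraries. Of these 10, 5 had a positive and 5 a negative log2 fold change, with Gad2 called higher and Ppp1r1b called lower. With the GC and length trend removed, Gad2 was called higher, and Pde10a, Foxp1, Bcl11b and Ppp1r1b were called lower. The part of other cells and of fragment length in the values of Selenow and Selenom was not tested, and in such bulk libraries fewer cells of a type and less RNA per cell cannot be told apart.

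Selenof (chr3:144570304-144597680, plus strand) encodes the ER protein once called Sep15, which binds the folding sensor UGGT. It had 139, 136, 229 and 254 TPM in old D1 libraries, against 99.6, 97.9, 126 and 119 TPM in young D1 libraries. By gene total, all old values lay above all young ones, as was the case in either direction for 13.8% of tested genes. The change of 0.57 ± 0.33 was not called (edgeR adjusted p = 0.296) and was 0.12 with the trend removed. In old D1 library 1, 75.53 of the 138.8 TPM belonged to an isoform that does not code for protein. The 2 selenoprotein-coding isoforms held 36.77 and 24.48 TPM there. In young D1 library 4 the longer one alone held 110.8 TPM, so the coding isoforms did not separate the groups. Selenof stood first of the 10 in old D1 neurons by mean TPM, where Selenow and Selenom were lower, and was the third in young D1 neurons. By TMM-scaled CPM, which is not divided by length, Selenot led in old D1 neurons, with a mean of 190.7 against 105.8 for Selenof. By that measure Selenow (32.8) stood below Selenok (41.0) there.

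2 isoforms of Selenof code for the selenoprotein and differ after the selenocysteine codon. The shorter one ends at residue 121 and the longer at 162, and both place the selenocysteine at residue 93. The shorter made up 60.03, 73.7, 64.5 and 74.0% of the level of both together in old D1 libraries, against 21.2, 45.4, 49.2 and 0% in young D1 libraries. The 4 values of each group did not overlap, but how many other genes show such a separation of isoform shares was not counted. In D2 neurons the same share was 70.7, 62.5, 7.34 and 59.8% in old libraries, against 73.4, 68.2, 41.7 and 30.5% in young libraries, and the groups overlapped. These are RSEM's model-based divisions of shared fragments, and no test was run on them. The part of the shorter fragments of old D1 libraries in these shares was not tested.

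Selenot (chr3:58576636-58593133, plus strand) encodes a redox protein of the ER membrane. It had 71.8, 109, 111 and 193 TPM in old D1, against 114, 123, 106 and 98.4 TPM in young D1 libraries. Its log2 fold change was 0.10 ± 0.27 and turned to -0.69 with the trend removed, and neither was called. Selenoh (chr2:84669215-84670770, minus strand), a nucleolar member of the same fold, was scarce, with 2.70, 0, 8.85 and 60.3 TPM in old D1, against 13.2, 3.33, 6.19 and 0 TPM in young D1 libraries. Library 4 of old D1 alone held the high value, and the groups overlapped.

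The ER membrane pair Selenok and Selenos, both partners of the ER-associated degradation machinery, were not called in the age comparison of D1 neurons. Selenok (chr14:29968308-29975662, plus strand), a cofactor of protein palmitoylation, had 15.4, 36.9, 32.6 and 229.9 TPM in old D1, against 63.7, 55.7, 48.9 and 95.9 TPM in young D1 libraries. 3 of the 4 old values were below all young ones and the fourth was above them. Its log2 fold change of 0.28 ± 0.67 turned to -1.38 without old D1 replicate 4 and to -0.13 with the trend removed, and none of these was called. Selenos (chr7:66079649-66089405, plus strand), which draws the ATPase VCP to the ER membrane, had 73.0, 20.99, 64.3 and 28.4 TPM in old D1, against 33.1, 26.6, 37.0 and 65.4 TPM in young D1 libraries, with a log2 fold change of 0.06 ± 0.68 (-0.16 with the trend removed) and overlapping groups.

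Selenoi (chr5:30232581-30272427, plus strand) makes the phospholipid phosphatidylethanolamine. It had 115, 1.41, 14.0 and 6.51 TPM in old D1, against 36.3, 36.9, 7.90 and 6.23 TPM in young D1 libraries. The highest value was mostly not the selenoprotein: its coding isoform held 6.65% of Selenoi TPM in that library, or 7.65 TPM. By expected counts, which are not divided by length, it held more, 791 of 2145. The coding isoform alone had 7.65, 1.41, 13 and 0.29 TPM in old D1, against 13.1, 14.3, 2.60 and 6.23 TPM in young D1 libraries, and the groups overlapped. The coding share of Selenoi averaged 51.0% of TPM in old D1 and 51.9% in young D1 libraries, with an SD of 52.6 and 32.2 percentage points. It was 62.4% in old D2 and 96.0% in young D2 libraries, with an SD of 29.3 and 3.30. By expected counts the mean share was 62.0% in old D1, 71.4% in young D1, 90.4% in old D2 and 99.2% in young D2 libraries.

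For the other members with more than 1 isoform, selenoprotein-coding isoforms held most of the level on average. Their mean share was 94.3 to 95.5% of TPM for Selenom, 99.7 to 100% for Selenok and 97.8 to 99.7% for Selenot across the 4 groups. For Selenof it was 85.7 to 94.7%, with 1 old D1 library at 44.1%. In libraries where they were detected, it was 94.2 to 99.6% for Selenop and 94.8 to 100% for Selenoh. For Selenoo it was 71.0% in old D1 neurons, from 2 libraries at 42.1 and 100%, and 93.4 to 100% in the other groups. Selenow and Selenos have 1 isoform each in the tables, so no share applies.

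Selenop (chr15:3268547-3280508, plus strand) encodes the plasma protein that carries selenium to brain and other organs. It had 0, 17.1, 27.7 and 0.18 TPM in old D1, against 8.07, 30.8, 13.7 and 12.9 TPM in young D1 libraries, and the old libraries divided into high and near-zero values. Selenoo (chr15:89089084-89100340, plus strand), a mitochondrial pseudokinase that attaches AMP to proteins, had 0, 7.72, 2.02 and 0 TPM in old D1, against 0.17, 5.22, 6.79 and 2.38 TPM in young D1 libraries. Neither was called, and with a log2 fold change of -0.80 ± 1.22 for Selenop and -0.67 ± 1.77 for Selenoo the data do not fix a direction. Exons of Selenoo share 998 bases with Tubgcp6 on the opposite strand, and without a known strand setting fragments of that gene cannot be told apart from its own. Exons of Selenop share 439 of their 2842 bases with Ccdc152, and the part of Ccdc152 in the Selenop values was not tested.

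In D2 neurons no member was called between old and young mice (0 of 10 by edgeR and by DESeq2, and 0 at an unadjusted p under 0.05). Of all tested genes, 0.0790% were called. Selenow had 1362, 1998, 1426 and 1863 TPM in old D2, against 1441, 1070, 1569 and 1061 TPM in young D2 libraries, a log2 fold change of 0.28 ± 0.37. The 2 groups overlapped. Selenom had 119, 249, 207 and 219.8 TPM in old D2, against 189, 111, 331 and 158 TPM in young D2 libraries, with a log2 fold change of -0.08 ± 0.43 (0.036 with the trend removed). Selenof, Selenot and Selenok had log2 fold changes of 0.21 ± 0.33, -0.24 ± 0.27 and 0.29 ± 0.67, and the scarcer members had SE of 0.66 to 1.78. The astrocyte markers summed to 98.3 to 166 TPM in old D2, against 27.1 to 68.8 TPM in young D2 libraries. Microglia markers summed to 12.9 to 25.5 TPM, against 0.74 to 5.41 TPM. None of these markers was called, but 9 of 10 astrocyte markers and 6 of 8 microglia markers tested had a positive log2 fold change. Of the 6 D1 neuron markers, 4 (Sfxn1, Drd1, Chrm4 and Tac1) were called higher in old D2 libraries, among 11 genes called in all, with a summed level of 431 to 679.5 TPM in old D2, against 143 to 165 TPM in young D2 libraries. The part of D1 neuron RNA in the D2 values was not tested.

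The difference of the age changes was tested as an interaction. For Selenow it was -3.86 ± 0.55 on the log2 scale (edgeR adjusted p = 0.00499), so the fall in D1 neurons exceeded what was seen in D2 neurons. It was called in 23 of 23 alternatives and was -3.12 ± 0.46 with the trend removed (adjusted p = 0.00654). With the trend removed, 0.158% of tested genes were called lower. For Selenom it was -2.36 ± 0.62 and not called (adjusted p = 0.0562; 0.329 with the trend removed), and 6 of 23 alternatives called it. No other member was called. Thus 1 of 10 members was called, lower, against 1.77% of all tested genes in either direction and 0.840% lower.

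**Figure D3:**
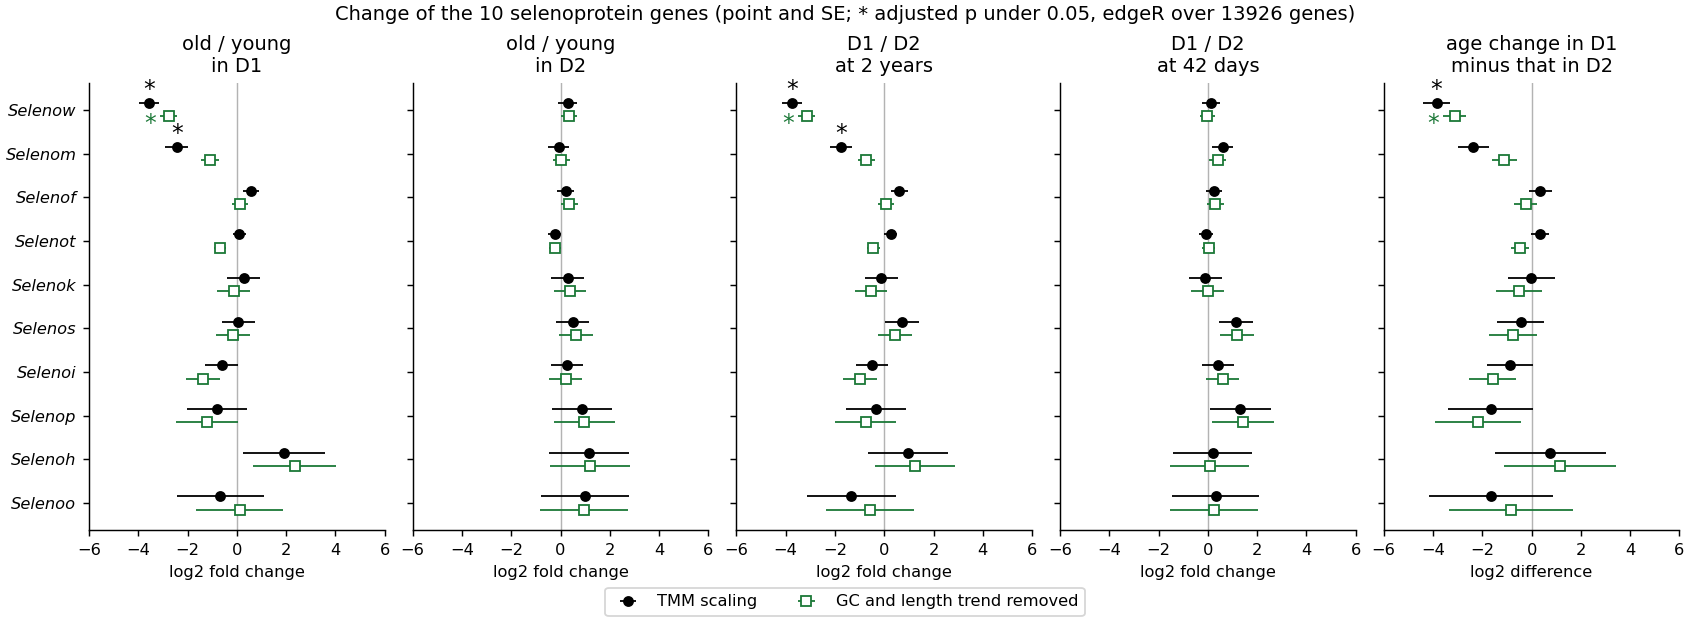
Log2 fold change with its SE for the 10 genes in the 4 comparisons and the log2 difference of the age changes, with TMM scaling (black circles) and after removal of the GC and length trend (green open squares); asterisks mark an edgeR adjusted p under 0.05. Selenow carries an asterisk under both fits in the 3 comparisons that use old D1 libraries, at -3.57, -3.73 and -3.86 with TMM scaling; Selenom carries one only with TMM scaling, in 2 of them.

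When D1 neurons were set against D2 neurons of the same age, Selenow and Selenom were called at 2 years and no member at 42 days. At 2 years Selenow was lower in D1 by -3.73 ± 0.42 on the log2 scale, with 67.2, 69.0, 272.6 and 48.0 TPM in old D1 libraries, against 1362, 1998, 1426 and 1863 TPM in old D2 libraries (edgeR adjusted p = 2.89e-05; -3.14 ± 0.34 with the trend removed; called in 16 of 16 alternatives). Selenom was lower by -1.76 ± 0.44 (adjusted p = 0.0172), and was called in 12 of 16 alternatives. It was not called with the trend removed (-0.72, adjusted p = 0.248), with voom weights, with only the compared groups or without old D2 replicate 2. These 2 of 10 members compare with 9.60% of all tested genes called and 4.58% called lower. With the trend removed 1 of 10 was lower, against 3.23% of tested genes. Selenok was called in 1 of 16 alternatives, without old D1 replicate 4 (-1.78, adjusted p = 0.0316). This comparison shares its old D1 libraries with the age comparison, so the results are not independent.

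At 42 days none of the 10 was called by edgeR or by DESeq2, and 0 at an unadjusted p under 0.05 (0.409% of all tested genes were called). Selenow had 1654, 1080, 952 and 1375 TPM in young D1, against 1441, 1070, 1569 and 1061 TPM in young D2 libraries, a log2 fold change of 0.12 ± 0.37 that turned to -0.022 with the trend removed. Selenos was the member whose 4 values did not overlap, with 33.1, 26.6, 37.0 and 65.4 TPM in young D1, against 21.4, 15.6, 25.0 and 19.8 TPM in young D2 libraries. All young D1 values were higher, as was seen in one direction or the other for 6.35% of tested genes, but the change of 1.16 ± 0.69 was not called (edgeR adjusted p = 0.984).

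Across the 16 libraries, Selenow and Selenom were the most alike pair of members, with a Pearson correlation of log2 CPM of 0.87, and Selenop and Selenoo followed at 0.78. The correlation of Selenow with Selenof was the lowest at -0.48. These describe libraries in which the old D1 group differs as a block, so that a gene low in all 4 of them correlates with any other such gene. By the same measure over 16 libraries, the genes most like Selenow were D8Ertd738e (0.98), Palm (0.98) and Bad (0.97). Genes among those most like Selenom were Ap1s1 (0.93) and Nrsn2 (0.93), and those most like Selenof were Spcs3 (0.86), Tmem47 (0.86) and Hs6st2 (0.86).

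**Figure D4:**
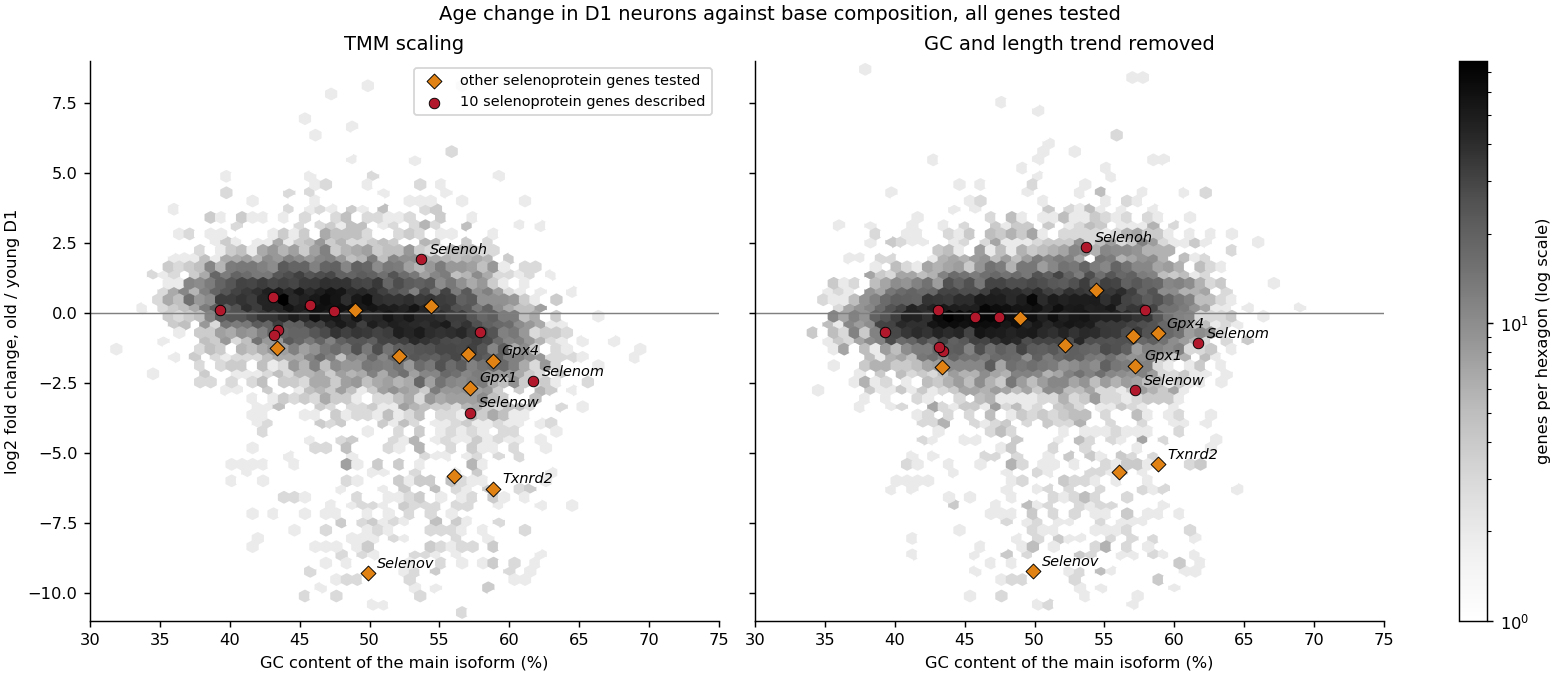
Log2 fold change of old over young D1 neurons against GC content of the main isoform for all tested genes with both values (grey hexagons), the 10 genes described (red circles) and the 10 other selenoprotein genes tested (orange diamonds), with TMM scaling (left) and after removal of the GC and length trend (right). Selenow, at 57.2% GC, lies at -3.57 on the left and -2.77 on the right; Selenom, at 61.7% GC, at -2.44 and -1.08.

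Of the 14 other selenoprotein genes, 10 were tested and 4 of these were lower and 0 higher in old D1 neurons, where 5.44% of all tested genes were called lower. Their median was -1.62 on the log2 scale beside -0.06 over all tested genes. With the trend removed 3 of 10 were lower, against 3.58% of tested genes. Gpx1, the cytosolic glutathione peroxidase, had 33.4, 22.7, 61.1 and 9.16 TPM in old D1, against 197, 225, 158 and 163 TPM in young D1 libraries. Its change was -2.67 ± 0.39 (edgeR adjusted p = 0.000358) and -1.88 ± 0.35 with the trend removed (adjusted p = 0.00400), and it was called in 16 of 16 alternatives. Selenov, a relative of Selenow, was listed at 0 in all 4 old D1 libraries, against 3.90, 23.9, 0.31 and 1.82 TPM in young D1 libraries (adjusted p = 0.0109, and 0.0181 with the trend removed), so no fold is given. Txnrd2, the mitochondrial thioredoxin reductase, had 0, 0, 0.12 and 0.50 TPM in old D1, against 11.2, 3.77, 19.5 and 33.3 TPM in young D1 libraries (adjusted p = 0.0185, and 0.0456 with the trend removed). Gpx4, the lipid peroxide reductase, was the fourth, at -1.71 (adjusted p = 0.0343), and was not called with the trend removed. Dio1, Dio3, Gpx2 and Txnrd3 did not pass the filter.

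In D2 neurons 0 of these 10 were called between old and young. In the difference of age changes Gpx1 (-2.12, adjusted p = 0.0451) and Selenov (adjusted p = 0.0451) were called lower, and neither was with the trend removed (adjusted p = 0.185 and 0.0735). At 2 years Gpx1, Selenov and Gpx3 were called lower in D1 than in D2 neurons, 3 of 10 against 4.58% of all tested genes. The log2 fold change of Gpx1 was -2.58 ± 0.39 (adjusted p = 0.000389) and -1.96 ± 0.35 with the trend removed (adjusted p = 0.00236). For Selenov the adjusted p was 0.0111, and 0.0150 with the trend removed. Gpx3, the secreted peroxidase, was listed at 0 in all old D1 libraries, against 0.51, 1.47, 4.22 and 2.53 TPM in old D2 libraries (adjusted p = 0.0481). It was not called with the trend removed (adjusted p = 0.0723) and was called in 4 of 16 alternatives. At 42 days 0 of 10 were called.

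Genes of the machinery that makes and inserts selenocysteine were also examined. Of 17 tested genes for its synthesis and insertion, 1 was higher and 0 were lower in old D1 neurons, where 5.39% of all tested genes were called higher. Among the 17 are the SECIS-binding protein gene Secisbp2 and the elongation factor gene Eefsec. The 1 called gene was Ncl, for nucleolin, with 168, 148, 147 and 140 TPM in old D1, against 58.6, 80.6, 85.1 and 63.2 TPM in young D1 libraries (0.98 ± 0.18, edgeR adjusted p = 0.00230). With the trend removed it was 0.11 and not called (adjusted p = 0.784). The receptors that take up selenoprotein P, Lrp8 and Lrp1, were not called in any comparison. Of 9 tested genes of phospholipid synthesis around Selenoi, 0 were called for age in D1 neurons, where 10.8% of all tested genes were called. With the trend removed 1, Pisd, was higher, beside 334 of 13926 genes called higher. Pisd makes phosphatidylethanolamine in mitochondria, and at 2 years it was higher in D1 than in D2 neurons (1.63 ± 0.42, edgeR adjusted p = 0.0180). With the trend removed it was 1.96 ± 0.41 (adjusted p = 0.00722), and Pisd was called in 11 of 16 alternatives. It was the 1 of 9 called there with TMM scaling, against 9.60% of all tested genes.

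Genes of ER quality control, the setting of Selenof, Selenok, Selenos and Selenom, were a further list. Of 18 tested, 4 were higher and 0 lower in old D1 neurons, where 5.39% of all tested genes were called higher, with a median of 0.48 beside -0.06 over all tested genes. Hspa5, the ER chaperone BiP, had 273, 216, 209 and 166 TPM in old D1, against 57.1, 77.4, 79.7 and 80.3 TPM in young D1 libraries (1.38 ± 0.29, adjusted p = 0.00564). Canx (0.75 ± 0.22, edgeR adjusted p = 0.0364), a lectin chaperone, and Pdia6 (1.52 ± 0.46, adjusted p = 0.0407), a disulphide isomerase, were higher too, as was Hsp90b1. Of 16 alternatives, 15 called Hspa5, 4 called Canx and 7 called Pdia6. Canx had 91.7 to 426 TPM in old D1, against 94.0 to 148 TPM in young D1 libraries, so its groups overlapped. With the trend removed 0 of 18 were called, and Hspa5 was at 0.85 (adjusted p = 0.0809). In D2 neurons 0 of 18 were called, with a median of 0.39 beside 0.01 over all tested genes. There 15 of 18 values were positive, against 12 of 18 in D1 neurons. In the difference of age changes 0 of 18 were called, so no difference between D1 and D2 neurons was shown for this list.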

How the data were processed

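TRAP libraries from 16 samples were analysed, and the 3 NIH-3T3 samples of the series were not analysed here. Per the submitters' processing notes, the authors used STAR 2.5.1b, RSEM 1.2.20 and the build mm10. Each deposited table holds RSEM expected counts (estimated fragments) per gene and isoform, TPM made by the authors' RSEM run, effective lengths in bases, and the percent of a gene's TPM in each isoform, per the file headers. Strand setting, trimming, read length and annotation release were not given in the sources used here.

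Symbols and isoform types came from GENCODE M21 by gene ID (37693 of 39017 genes matched). The main isoform of a gene is the one with the highest mean TPM. Expected counts were rounded, because 20.0% of nonzero values were not whole. Genes were kept by filterByExpr in edgeR 4.0.16 (R 4.3.3), scaled by TMM, and tested with the robust quasi-likelihood test over all 16 libraries with 1 mean per group and Benjamini-Hochberg adjustment over 13926 genes; a gene was called at an adjusted p under 0.05. In the GC and length fit, the trend of log2 CPM over GC content and length of the main isoform, fitted per library with splines of 4 degrees of freedom each, entered as an offset; 97.3% of tested genes have both values. Other alternatives were DESeq2 1.42.0, its size factors, no count filter, limma 3.58.1 (voom with library weights, and log2(TPM + 1) or log2(TPM + 0.1)), a fit of the compared groups alone, and each library left out in turn. The code was tested on simulated data.

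Depth ran from 27484038 to 70903004 assigned fragments. The labels call the libraries biological replicates but name no animal per library, and replicate numbers follow the order of the records and pair nothing. Libraries were amplified without molecular identifiers, so counts are not independent molecules. Genes named beside the 10 were taken by rule: of each gene list and comparison, up to 3 called genes per direction by smallest adjusted p, and for the 3 members with the highest mean TPM, the 3 genes with the highest correlation, of which 1 is not reported here. The members and lists were chosen with earlier results of these data known.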

Additional observations from a re-analysis of the deposited data

Results flagged for a closer look

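Of 40 groups of 4 libraries (10 genes in 4 groups), 6 held a library whose TPM lay far from the other 3; chance flags about 1 in 20 groups. In old D1 neurons these were Selenow at 272.6 TPM and Selenoi at 115.0 TPM, and, in library 4, Selenok at 229.9 TPM and Selenoh at 60.31 TPM. In old D2 neurons, library 1 held both Selenof at 219.0 TPM and Selenos at 84.76 TPM. All 6 were the highest of their group.

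The age change differed between D1 and D2 neurons, by an interaction term in edgeR, for Selenow (-3.86 on the log2 scale, adjusted p = 0.00499), Gpx1 (-2.12, adjusted p = 0.0451) and Selenov (adjusted p = 0.0451). Selenow was called in 23 of 23 alternatives, Gpx1 in 9 and Selenov in 4. With the GC and length trend removed, Gpx1 (edgeR adjusted p = 0.185) and Selenov (adjusted p = 0.0735) were not called. The fitted value of Selenov, -10.54, is no measured fold, because its count was 0 in all old D1 libraries.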

How the results depend on the processing

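Selenow kept its call and its direction under every alternative run in the 3 comparisons that use old D1 libraries, and 0 of 10 members were called under any alternative in the age comparison of D2 neurons and in D1 against D2 at 42 days. No paired analysis was possible because the replicate numbers follow the order of the records and the labels tie no library of one group to one of another. The number of genes called in old against young D1 neurons was 1508; it was 2600 with DESeq2, 832 after removal of the GC and length trend, 305 with only the compared groups, 547 with voom library weights, and 909 to 2055 without 1 library. For the age change in D2 neurons it was 11, and 102, 39 and 167 with DESeq2, only the compared groups and voom, and 5 to 12 without 1 library; with the trend removed 10 higher and 5 lower genes were called, beside 9 and 2. For the difference of age changes it was 246, and 1019 with DESeq2, 62 with the trend removed (40 higher and 22 lower, beside 129 and 117), and 66 to 656 without 1 library, the highest without old D1 replicate 3 and the lowest without old D2 replicate 2. For D1 against D2 at 2 years it was 1337, and 2402, 884, 354 and 655 with DESeq2, the trend removed, only the compared groups and voom, and 692 to 1873 without 1 library. At 42 days it was 57, and 189, 98 and 203 with DESeq2, only the compared groups and voom. Members called for age in D1 numbered 2, and 1 with the trend removed and 1 with voom. For the difference of age changes 1 member was called, and 2 with DESeq2 and with either TPM fit in limma, and 1 to 2 without 1 library. For D1 against D2 at 2 years 2 were called, and 1 with only the compared groups, 1 with the trend removed, 1 with voom, and 1 to 3 without 1 library. In the order of the 10 members by mean level in each group, 29 positions moved and 11 stayed with TMM-scaled CPM in place of TPM. For the selenoprotein-coding isoform share, 7 group means moved and 33 stayed when expected counts replaced TPM. The causes were not tested.

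Directions of uncalled members turned as follows, on the log2 scale. In the age comparison of D1 neurons, the trend removed gave Selenok -0.13, Selenot -0.69, Selenos -0.16 and Selenoo 0.11, voom gave Selenok -0.95, Selenot -0.23 and Selenoh -1.07, and limma on TPM gave Selenok -0.47 (pseudocount 1) and -0.49 (pseudocount 0.1). In D2 neurons, Selenom was 0.036 with the trend removed and 0.074 and 0.075 in limma on TPM, and Selenos was -0.23 with voom and -0.0093 and -0.032 in limma. For the difference of age changes, Selenok was 0.017 with DESeq2 and 0.017 with its size factors, Selenof -0.24 and Selenot -0.47 with the trend removed, Selenos 0.66 and Selenoh -2.43 with voom, and in limma Selenos 0.11 and 0.13 and Selenoh -0.55 and -0.69. At 2 years, Selenot was -0.44 with the trend removed, -0.018 with voom and -0.00034 in limma with pseudocount 0.1, and Selenoh was -2.18 with voom and -0.83 and -1.67 in limma. At 42 days, Selenow was -0.022 and Selenot 0.029 with the trend removed, and in limma Selenow was -0.033 and -0.033 and Selenoh -0.28 and -0.98.

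Leaving out 1 library turned further signs, with these ranges. They were -1.38 to 0.63 for Selenok, -0.33 to 0.29 for Selenot, -0.22 to 0.47 for Selenos and -0.55 to 2.67 for Selenoh for age in D1 neurons. For age in D2 neurons they were -0.27 to 0.32 for Selenom, -0.059 to 0.34 for Selenof, -0.76 to 0.82 for Selenos and -0.033 to 0.47 for Selenoi. For the difference they were -1.67 to 0.33 for Selenok, -0.078 to 0.53 for Selenot, -0.77 to 0.81 for Selenos and -1.70 to 1.52 for Selenoh. At 2 years they were -1.78 to 0.22 for Selenok, -0.15 to 0.46 for Selenot, -1.14 to 0.068 for Selenop and -1.50 to 1.37 for Selenoh. At 42 days they were -0.44 to 0.14 for Selenok, -0.13 to 0.021 for Selenot, -0.59 to 0.75 for Selenoh, -0.10 to 0.68 for Selenoi and -0.12 to 1.82 for Selenoo. Selenop, Selenoh and Selenoo had no count in 1, 2 and 3 libraries, and the cause was not tested.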
